A study of Mus musculus with 7 samples.

Results

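Enzymes that make nucleotides were examined in the prostate of Nkx3.1-/- mice given N-acetylcysteine (NAC), an antioxidant and a source of cysteine. The 10 genes were taken by name, with no threshold on their values, but with earlier results of these arrays known. Of these, 4 act in purine synthesis (Ppat, Gart, Paics and Atic), 2 in pyrimidine synthesis (Cad and Umps) and 4 in the supply of deoxynucleotides (Rrm1, Rrm2, Tyms and Tk1). All 10 were found, each with 1 probe set, among 18938 genes measured on Affymetrix Mouse Gene 1.0 ST arrays. All mice of both groups carried this genotype on a recombinant inbred B6/129 background and were 16 weeks old. The NAC group (4 arrays, replicates 1 to 4) drank 5 mM NAC for 13 weeks from weaning, and the vehicle group (3 arrays, replicates 1, 2 and 4) drank plain water. The paper states that mice received BrdU, a label of DNA synthesis, shortly before they were killed. It names no exception for the mice of the arrays. Each array holds the RNA of 1 mouse, a further vehicle array having failed the authors' quality control. Littermates were split between NAC and vehicle cages, so that cage and treatment cannot be told apart, and the tissue is given as anterior prostate in the extraction protocol but as whole prostate in another label.

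Purines are built on a ribose phosphate in a chain of steps that ends at inosine monophosphate (IMP), from which AMP and GMP are made. Pyrimidines are built as a ring that is joined to ribose phosphate to give UMP. Ribonucleotide reductase then turns ribonucleotides into deoxynucleotides, and thymidylate is made either from dUMP or from thymidine taken up by the cell. Cells that copy their DNA need all of these routes, and several of the genes, among them Rrm2, Tyms and Tk1, are known for transcripts that are most abundant in S phase.

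The values are log2 levels of whole tissue, in which fewer cells of a type and less RNA per cell cannot be told apart. The epithelial keratin genes Krt8 and Krt18 were between 11.96 and 12.60 on every array, and Tgm4, a secretory gene of the anterior prostate, was between 13.96 and 14.02. Other genes on the luminal list varied. Pate4, which was also on the list of seminal vesicle markers given below, ranged from 6.61 on NAC replicate 1 to 11.43 on NAC replicate 4. The luminal mean is therefore not separate from the seminal vesicle markers. The mean deviation of the 11 luminal markers, with Pate4 among them, ran from -0.15 on NAC replicate 3 to 0.24 on NAC replicate 4, relative to the mean of the 7 arrays. That of the 5 basal markers ran from -0.23 on NAC replicate 2 to 0.34 on NAC replicate 1. NAC replicate 3 differed from the rest in markers of fat, muscle, lung and vessels. There, 7 of 7 adipocyte markers, 9 of 9 skeletal muscle markers, 7 of 7 lung markers and 5 of 5 endothelial markers reached their highest value. Summed over the list, the lung markers came to 56.00 on NAC replicate 3, while the remaining NAC arrays gave 39.87 to 40.27 and the vehicle arrays 39.54 to 40.04. In the same order the adipocyte sum was 56.24, 41.15 to 44.12 and 41.70 to 42.91, and the skeletal muscle sum 69.03, 61.81 to 62.44 and 61.82 to 62.19. The endothelial sum was 38.10 there and 36.35 to 36.66 on the remaining arrays of both groups. Macrophage markers had 7 of 7 log2 differences above 0, with a median of 0.15, and 7 of 7 also without NAC replicate 3. Markers of the seminal vesicle, a neighbouring gland, ranged in sum from 60.33 on NAC replicate 1 to 74.51 on NAC replicate 4 and from 70.06 to 72.70 with vehicle. All 7 of these markers had a log2 difference below 0 (2 of 7 above 0 without NAC replicate 3), and for 3 of 7 the NAC and vehicle arrays did not overlap, with NAC lower, as for 2.18% of all genes. The part of these tissues and cells in the differences given here was not tested, and values without NAC replicate 3 are given for the enzymes that it moved most and for the lists whose counts it changed.

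No enzyme passed the test of NAC against vehicle. Over all 18938 genes, limma called 0 (0%) at an adjusted p under 0.05, and so 0 of the 10 enzymes. At an unadjusted p under 0.05, 2 of the 10 were lower with NAC, Ppat and Paics, where 2.53% of all genes were, and 0 were higher, where 1.89% were. Their NAC and vehicle arrays did not overlap, as was the case for 2.18% of all genes with NAC lower and for 1.29% with NAC higher (0 of the enzymes). The log2 difference of NAC minus vehicle was above 0 for 6 enzymes and below 0 for 4, with a median of 0.07 (0.02 without vehicle replicate 2), while 49.5% of all genes were above 0 and the median of all genes was 0.00. The 3 sets of steps lay on different sides of 0. The median was -0.11 over the purine steps, 0.12 over the pyrimidine steps and 0.15 over the deoxynucleotide steps (0.09 without NAC replicate 3). These medians are descriptions, and the difference between the sets was not tested.

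**Figure D1:**
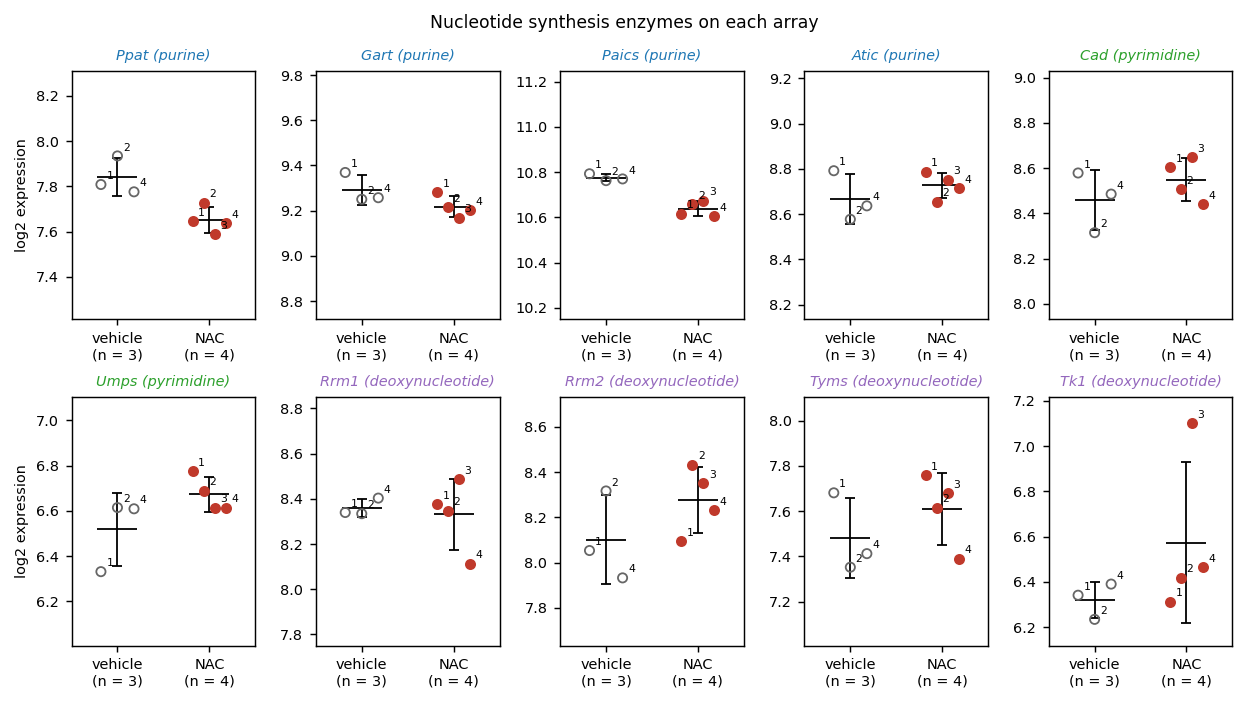
Log2 expression of each nucleotide synthesis enzyme (y axis, every panel spanning the same number of log2 units) on the vehicle arrays (open grey circles, n = 3) and the NAC arrays (filled red circles, n = 4), with small numbers for the replicate and black bars for mean and SD. The NAC arrays of Ppat and Paics lie below every vehicle array, and Tk1 is highest on NAC replicate 3 at 7.10.

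Ppat and Paics were the enzymes whose groups separated. Ppat, the amidophosphoribosyltransferase that commits ribose phosphate to purine synthesis, was at 7.81, 7.93 and 7.78 on vehicle replicates 1, 2 and 4 and at 7.65, 7.73, 7.59 and 7.64 on NAC replicates 1 to 4. Every NAC array was below every vehicle array. Vehicle averaged 7.84 ± 0.08 (SD, n = 3), and NAC averaged 7.65 ± 0.06 (SD, n = 4). The log2 difference of -0.19 (standard error 0.05, 95% interval -0.31 to -0.07) amounts to a change of -12.3%, with limma's adjusted p = 0.827 and an unadjusted p of 0.0083. Paics, which carries out later steps that carboxylate the purine precursor and add aspartate to it, was at 10.79, 10.76 and 10.77 with vehicle and at 10.62, 10.66, 10.67 and 10.60 with NAC. Again the groups did not overlap, and the arrays of each group lay close together, with an SD of 0.02 (n = 3) and 0.03 (n = 4). The log2 difference was -0.14 (standard error 0.03, 95% interval -0.21 to -0.06), a change of -9.02%, with an adjusted p = 0.827 by limma and an unadjusted p of 0.0032. The spread of Paics within groups, an SD of 0.03, was larger than that of only 6.48% of all genes. Leaving out each array in turn moved the log2 difference of Ppat between -0.22 and -0.14 and that of Paics between -0.15 and -0.13. Without NAC replicate 3, on which Ppat was lowest, they were -0.17 and -0.15. All intervals here are for single genes and were not widened for the number of genes tested.

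Ppat and Paics are neighbours that are read from opposite strands, and their position is therefore shown with the sequences around it. In the RefSeq promoter table of GRCm38.p6, the annotated start of Ppat lies 276 bases beyond that of Paics in the direction in which Paics is read, so that the beginnings of both genes overlap head to head. All 10 enzymes had a window in that table, from 250 bases before the annotated start to 50 after it. The windows were searched on both strands for CACGTG, the E-box bound by MYC and related factors, for CCAAT, the box bound by NF-Y, and for TTTGGCGC, TTTCCCGC, TTTGCCGC and TTTCGCGC, words of the E2F sites known from S phase genes. None of these words overlaps another in the windows shown. The windows of Paics and Ppat each lie wholly past the annotated start of the partner gene, in the direction in which that gene is read. For this reason only stretches of 30 bases are shown, each read 5′ to 3′ along its own gene, with the matched word in capitals. They include the E-box of Atic, a purine gene that was not lower with NAC, for comparison.
Paics, E-box starting 203 bases before the annotated start, chr5:76951087-76951116, plus strand: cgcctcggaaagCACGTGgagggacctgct
Paics, CCAAT box starting 23 bases before the start, chr5:76951266-76951295, plus strand: ctcccgctctccgCCAATcagctagggcaa
Ppat, TTTCCCGC on the opposite strand, 211 bases before the start, chr5:76951771-76951800, minus strand: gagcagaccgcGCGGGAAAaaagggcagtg
Ppat, TTTCCCGC on the opposite strand, 158 bases before the start, chr5:76951718-76951747, minus strand: aggatcagaggGCGGGAAAgggaggtgcaa
Atic, E-box starting 7 bases before the start, chr1:71557137-71557166, plus strand: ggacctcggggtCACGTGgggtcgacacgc
The E-box was present in 3 of the 10 windows (Paics, Atic and Tyms) and in 7.15% of all 32851 windows, and the CCAAT box in 5 of 10 (Paics, Atic, Gart, Rrm1 and Rrm2) and 37.4% of all. An E2F word was present in 1 of 10, that of Ppat, and in 2.26% of all. A match describes letters and not binding, and the windows of Paics and Ppat did not hold the same words. The Paics window ends at position 76951351 and the Ppat window begins at 76951529, and the bases between them were not searched.

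**Figure D2:**
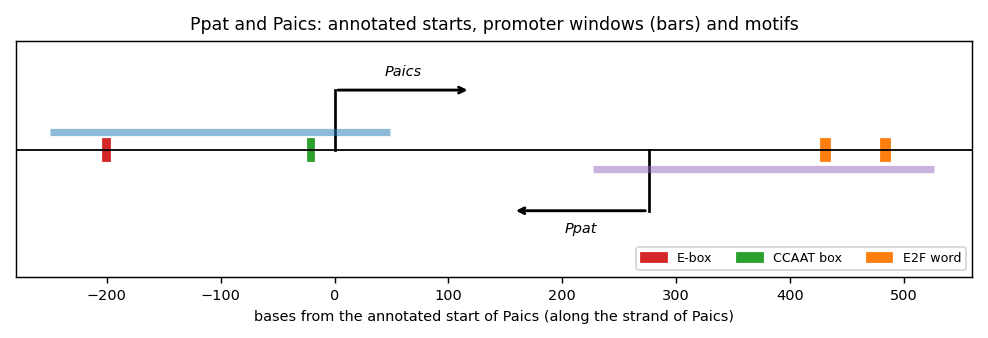
Map of the head-to-head starts of Ppat and Paics, with distance in bases from the annotated start of Paics on the x axis, arrows for the direction of each gene, pale bars for the promoter windows (blue for Paics, purple for Ppat) and coloured boxes for matched words. The start of Ppat lies 276 bases to the right of that of Paics, and the arrow of Ppat points back towards the start of Paics.

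The other purine enzymes did not separate. Gart, a protein with several enzyme activities of the early steps, was at 9.37, 9.25 and 9.26 with vehicle and at 9.28, 9.22, 9.17 and 9.20 with NAC. NAC replicate 1 lay above vehicle replicates 2 and 4, so the groups overlapped. Its log2 difference was -0.08 (95% interval -0.18 to 0.03), and -0.04 without vehicle replicate 1. Atic, which completes the ring to give IMP, was at 8.79, 8.58 and 8.64 with vehicle and at 8.79, 8.66, 8.75 and 8.71 with NAC, with vehicle replicate 1 the highest array and vehicle replicate 2 the lowest. The log2 difference was 0.06 (95% interval -0.08 to 0.20), or from -5.61% to 14.9%. It was 0.01 without vehicle replicate 2 and 0.12 without vehicle replicate 1, in which case its unadjusted p was 0.048 and limma's adjusted p = 0.954. Averaged over the 4 purine enzymes, the deviation from the mean of the 7 arrays was 0.10, 0.04 and 0.02 on vehicle replicates 1, 2 and 4 and -0.01, -0.03, -0.05 and -0.06 on NAC replicates 1 to 4.

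Both pyrimidine enzymes had positive differences with intervals that included 0. Cad, a protein that joins the first enzymes of pyrimidine synthesis, was at 8.58, 8.31 and 8.49 with vehicle and at 8.60, 8.51, 8.65 and 8.44 with NAC. The ranges overlapped, and the log2 difference was 0.09 (95% interval -0.09 to 0.27). Umps, which attaches ribose phosphate and makes UMP, was at 6.33, 6.61 and 6.61 with vehicle and at 6.78, 6.69, 6.61 and 6.61 with NAC. Several arrays of both groups lay at 6.61, and vehicle replicate 1 was below all others. Its log2 difference of 0.16 (95% interval -0.04 to 0.35, limma adjusted p = 0.827) was 0.06 without vehicle replicate 1. For Cad it was 0.02 without vehicle replicate 2, the lowest array of that gene, 0.15 without vehicle replicate 1 and 0.06 without NAC replicate 3.

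Among the deoxynucleotide enzymes, the subunits of ribonucleotide reductase had differences of unlike sign. Rrm1, the large subunit, was at 8.34, 8.33 and 8.40 with vehicle and at 8.38, 8.35, 8.49 and 8.11 with NAC. The NAC arrays held both the highest and the lowest value, on replicates 3 and 4. The log2 difference was -0.03 (95% interval -0.23 to 0.17), and 0.04 without NAC replicate 4. Rrm2, the small subunit, which limits the enzyme outside S phase, was at 8.05, 8.32 and 7.93 with vehicle and at 8.10, 8.43, 8.35 and 8.23 with NAC. Vehicle replicate 2 lay above NAC replicates 1 and 4. The log2 difference was 0.18 (95% interval -0.09 to 0.45), or from -6.17% to 36.2%. It was 0.09 without vehicle replicate 4 and 0.28 without vehicle replicate 2, in which case its unadjusted p was 0.034 and limma's adjusted p = 0.861.

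The enzymes that supply thymidylate also overlapped between groups. Tyms, thymidylate synthase, was at 7.68, 7.35 and 7.41 with vehicle and at 7.76, 7.62, 7.68 and 7.39 with NAC. Vehicle replicate 1 lay among the NAC arrays and NAC replicate 4 among the vehicle arrays, and the log2 difference was 0.13 (95% interval -0.14 to 0.39). It was 0.06 without vehicle replicate 2 and 0.23 without vehicle replicate 1. The processed pseudogene Tyms-ps, named after its values were seen, has a probe set of its own, at 5.20 on all 7 arrays. Tk1, the cytosolic thymidine kinase, was at 6.34, 6.23 and 6.39 with vehicle and at 6.31, 6.42, 7.10 and 6.46 with NAC. NAC replicate 3 was 0.64 above the next array, and NAC replicate 1 was below vehicle replicates 1 and 4. The log2 difference was 0.25 (standard error 0.19, 95% interval -0.19 to 0.69, limma adjusted p = 0.827), the largest among the 10 enzymes, and 0.08 without NAC replicate 3, the array that also holds the adipocyte, muscle and lung transcripts. Tk1 and Rrm2 are among the genes that the study singled out on these same arrays as higher with NAC, so their positive difference is not independent evidence.

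**Figure D3:**
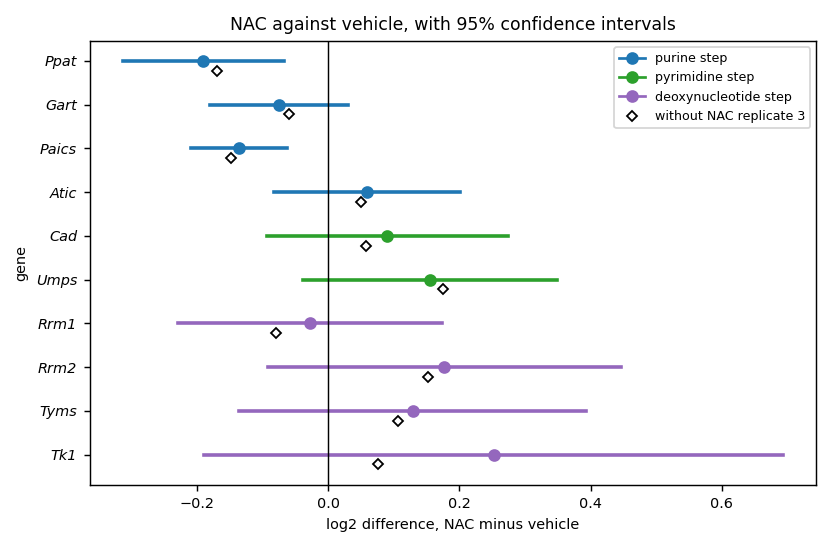
Log2 difference of NAC minus vehicle for each enzyme (x axis, genes on the y axis), with circles for all 7 arrays, lines for the 95% confidence interval of the single gene and open diamonds for the value without NAC replicate 3. Only the intervals of Ppat (-0.31 to -0.07) and Paics (-0.21 to -0.06) exclude 0, and Tk1 moves most without that array, from 0.25 to 0.08.

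The enzymes varied in different ways over the arrays. The mean deviation of the 4 deoxynucleotide enzymes was -0.01, 0.06, 0.26 and -0.09 on NAC replicates 1 to 4, against -0.04, -0.08 and -0.11 with vehicle. Genes of the cell cycle, among them the proliferation marker Mki67 and the kinase Cdk1, followed a like order. Over 26 measured cell cycle genes the mean deviation was 0.16 on NAC replicate 3 and -0.11 on NAC replicate 4, with 0.01 and 0.07 on NAC replicates 1 and 2 and -0.03, -0.02 and -0.10 with vehicle. Of these 26 genes, 23 were above 0 and 3 below 0 in the difference of NAC minus vehicle, with a median of 0.08 (18 above 0 and a median of 0.04 without NAC replicate 3). Many of them, among them Mki67, Ccna2, Plk1 and Aurkb, are genes the study singled out on these same arrays as higher with NAC, so this count is not independent evidence of its direction. With limma, 0 of them passed, and 0 had an unadjusted p under 0.05. Their smallest p-values belonged to Mcm5 of the replicative helicase, the mitotic kinases Aurkb and Plk1, and Cdk1, with log2 differences of 0.08, 0.09, 0.20 and 0.17 (0.06, 0.10, 0.17 and 0.12 without NAC replicate 3). On NAC replicate 3, 11 of the 26 had their highest value, as did 3 of the 10 enzymes (Cad, Rrm1 and Tk1) and 14.8% of all genes. On NAC replicate 4, 10 of the 26 had their lowest value, as did 2 of the 10 enzymes (Paics and Rrm1) and 17.3% of all genes.

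**Figure D4:**
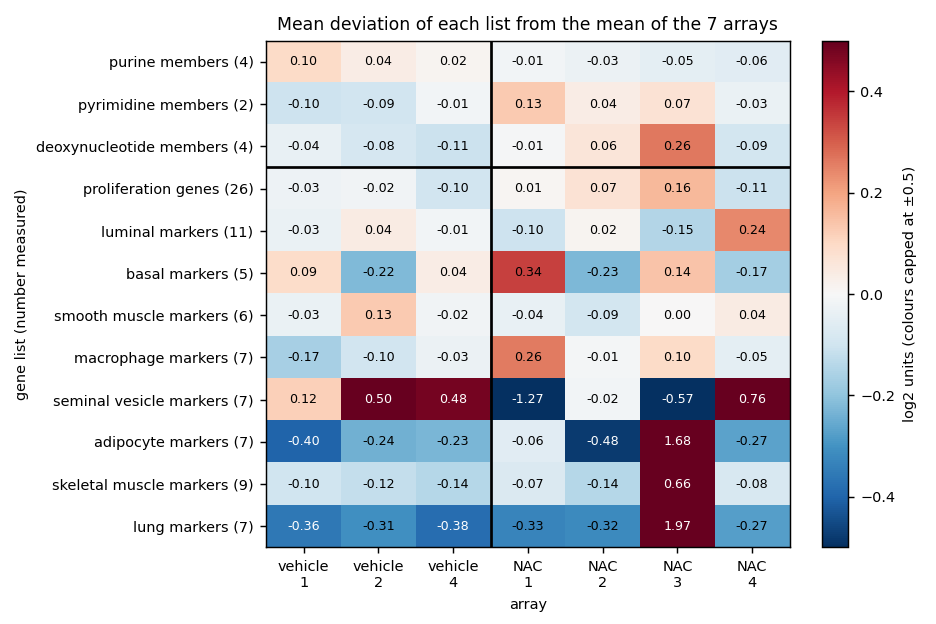
Mean deviation of each gene list (rows, with the number of measured genes) from the mean of the 7 arrays in log2 units, for the vehicle arrays (left of the vertical line) and the NAC arrays (right), with colours capped at 0.5 in either direction and the value written in each cell. Purine enzymes run from 0.10 on vehicle replicate 1 to -0.06 on NAC replicate 4, while the deoxynucleotide enzymes peak at 0.26 on NAC replicate 3, where lung markers reach 1.97.

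The genes with the array pattern closest to that of the deoxynucleotide enzymes, by Pearson's r over the 7 arrays with the mean deviation of those 4, were Wt1, Racgap1, Ndc80, Spertl and Cenph. Wt1 is a transcription factor of the developing urogenital tract, Racgap1 acts in cytokinesis, and Ndc80 and Cenph are kinetochore proteins. Their r was 0.96, 0.96, 0.96, 0.96 and 0.96, with Spearman's rho from 0.61 to 0.88. All 5 were highest on NAC replicate 3. Spertl was at 4.52 and Cenph at 4.75 on every vehicle array. Without that array and NAC replicate 2, the 2 farthest from the median, r was 0.38 for Wt1, 0.74 for Racgap1, 0.31 for Ndc80 and -0.36 for Cenph. Spertl could not be compared. The likeness thus rested in large part on those arrays. The r of Racgap1 fell least, but its level on NAC replicate 3, at 7.33, was 0.41 above the next array. Racgap1 and Ndc80, too, are among the genes the study singled out on these arrays. Within the deoxynucleotide enzymes themselves r with their mean was 0.60 for Rrm1, 0.54 for Rrm2, 0.60 for Tyms and 0.87 for Tk1. Without NAC replicates 2 and 3 it was 0.29, -0.07, 0.94 and -0.37 in the same order. Their mean pattern followed Tk1 most closely over the 7 arrays. Each enzyme is itself part of that mean, and Tk1 had the widest spread of the 4 within groups (SD 0.28). Its high r therefore comes in part from its own share of the mean. The purine enzymes were most like Rnf216, Tapbp, Utp14a, Wdr24 and Fbxw7. Of these, Tapbp loads peptides onto major histocompatibility molecules, Utp14a takes part in making ribosomal RNA, and Fbxw7 and Rnf216 act in ubiquitin transfer. Their r over the 7 arrays was between 0.97 and 0.98, and between 0.91 and 0.94 without vehicle replicates 1 and 2, the farthest from the median. Within the purine enzymes themselves r with their mean, of which each is again a part, was 0.75 for Ppat, 0.90 for Gart, 0.85 for Paics and 0.02 for Atic. These genes were picked as the closest of all genes, so r is given as a description with no test.

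Other enzymes of the same routes showed no call either. Of 12 further purine genes measured, 3 were above 0 (2 without NAC replicate 3) and 9 below 0, with a median log2 difference of -0.04, and 0 had an unadjusted p under 0.05. Prps1 and Prps2 make the activated ribose phosphate that Ppat uses. Prps2 was at 10.22, 10.36 and 10.13 with vehicle and at 9.84, 10.27, 10.02 and 9.92 with NAC. NAC replicate 2 lay among the vehicle arrays and the other NAC arrays below them, and the log2 difference was -0.22 (95% interval -0.48 to 0.03). That of Prps1 was -0.19 (95% interval -0.44 to 0.05). The guanylate kinase Guk1 had -0.08 and the mitochondrial adenylate kinase Ak4 had 0.13.

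The list of 8 further pyrimidine genes includes Nme1, Nme2, Nme3 and Nme4, whose enzymes are not confined to pyrimidines. Of the 8, 3 were above 0 (4 without NAC replicate 3) and 5 below 0, with a median of -0.02 (0.02 without that array). Nme2, a nucleoside diphosphate kinase, was at 10.25, 10.17 and 10.15 with vehicle and at 10.40, 10.26, 10.26 and 10.46 with NAC. Its groups did not overlap by a narrow margin, and the log2 difference was 0.15 (standard error 0.06, limma adjusted p = 0.827, unadjusted p of 0.039). Nme3 of the same family had -0.07, with the NAC arrays below all vehicle arrays, and Nme1 had 0.09. Dhodh, the mitochondrial enzyme between Cad and Umps in the route, had -0.08, with 4 arrays at 8.01.

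Of 9 further deoxynucleotide genes, 2 were above 0 and 7 below 0, with a median of -0.07. Cmpk2, a mitochondrial nucleotide kinase that interferon induces, was at 7.04, 7.15 and 7.29 with vehicle and at 7.01, 7.01, 6.87 and 6.91 with NAC. The groups did not overlap, and the log2 difference was -0.21 (standard error 0.07, limma adjusted p = 0.827, unadjusted p of 0.017). Samhd1, which breaks deoxynucleotides down and is also known to respond to interferon, had -0.18, with NAC replicate 2 at 10.48 among the vehicle arrays, from 10.44 to 10.49. The deoxycytidine kinase Dck had 0.09 and the glutaredoxin Glrx, which can pass electrons to ribonucleotide reductase, -0.12.

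Of 15 genes of folate and serine metabolism, which give the one-carbon units for purines and thymidylate, 7 were above 0 and 8 below 0, with a median of -0.01 (5 above 0 and a median of -0.03 without NAC replicate 3). Phgdh, the first enzyme of serine synthesis, was at 9.77, 9.81 and 9.89 with vehicle and at 9.73, 9.72, 9.77 and 9.67 with NAC, a log2 difference of -0.10 (standard error 0.04) and an unadjusted p of 0.044. Its groups did not overlap, although vehicle replicate 1 and NAC replicate 3 both rounded to 9.77. Of 12 salvage genes, 4 were above 0 (5 without NAC replicate 3), 7 below 0 and 1, Aprt, at the same value on all arrays. The median was -0.02, and Uprt had the smallest p, with a log2 difference of -0.20 (standard error 0.08). Of 16 genes of nucleotide breakdown, 12 were above 0 (13 without NAC replicate 3) and 4 below 0, with a median of 0.05. The guanine deaminase Gda was at 5.47, 6.86 and 6.11 with vehicle and at 6.60, 7.25, 6.59 and 6.82 with NAC. Vehicle replicate 2 lay within the NAC range, and the log2 difference of 0.67 (standard error 0.33, 95% interval -0.11 to 1.45) did not pass. It was 0.33 without vehicle replicate 1, the lowest array at 5.47, and 1.03 without vehicle replicate 2. Adenosine deaminase, Ada, had 0.19 and the nucleotidase Nt5c 0.15. With limma, 0 genes of any of these lists had an adjusted p under 0.05, the smallest being 0.827. At an unadjusted p under 0.05, 2 of 72 genes were higher (Nme2 and Uox) and 3 were lower (Cmpk2, Phgdh and Uprt). These are 2.78% and 4.17%, beside 1.89% and 2.53% of all genes. Uox was low, from 3.89 to 4.07 with vehicle and from 4.07 to 4.25 with NAC, where array medians were 7.12 to 7.16. Its groups met at 4.07.

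**Figure D5:**
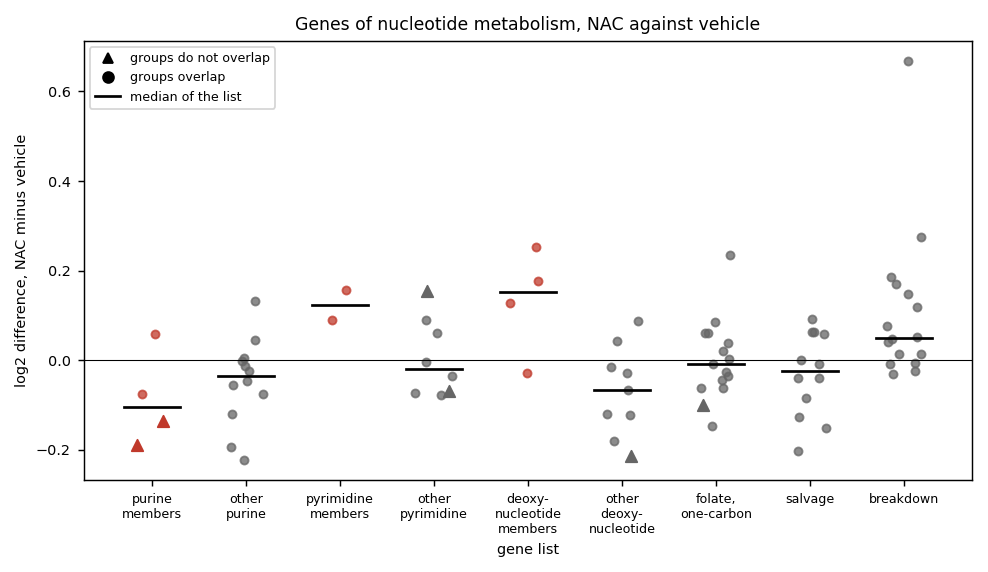
Log2 difference of NAC minus vehicle (y axis) for each measured gene of nucleotide metabolism by list (x axis), with the 10 enzymes in red, other genes in grey, triangles where NAC and vehicle arrays do not overlap and black lines for list medians. The red triangles are Ppat (-0.19) and Paics (-0.14), and the highest point is Gda at 0.67.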

How the data were processed

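RNA was measured in 3 vehicle and 4 NAC prostates, grouped by sample title. The authors deposited log2 values, for which perfect-match probes were background-corrected by RMA, normalized by quantiles and summarized by median polish. Affy, RMA and limma appear, with no version, in the submitters' processing notes. Here, probe sets naming 1 gene were kept (18950 of 20696), symbols were updated through Entrez identifiers (18910 found in GRCm38.p6), and the probe set with the highest mean stood for a gene. The table has 0 value columns without a sample. Signal over background cannot be seen in these values, and the number of arrays limits precision.

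The comparison used R 4.3.3 and its package limma 3.58.1 (eBayes after lmFit, no covariates, two-sided, Benjamini-Hochberg over all genes, adjusted p under 0.05). It was tried on simulated data whose added changes were all larger than the difference of any enzyme. Whether changes as small as those of the enzymes could be called was not tested. The enzymes and lists were chosen with earlier results of these data known. Named are the enzymes, up to 4 genes per list with the smallest p, and the 5 genes closest in pattern. Listed genes without a probe set of their own were not analysed here. Alternatives were a variance trend with robust fit, array weights, median subtraction, a further quantile normalization, a filter on dim genes (mean under the 40th percentile), the median probe set per gene, a replicate block and each array left out, and, chosen after seeing the data, NAC replicates 3 and 4 left out together.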

Additional observations from a re-analysis of the deposited data

Results flagged for a closer look

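Among 66 named and marker genes, 9 had a NAC array whose gap to the nearest other, divided by the range of the 4 NAC arrays, exceeded Dixon's 95% critical value. Chance passes this value in about 1 in 20 groups, but the 9 cannot be set against that share. Racgap1 was picked for its likeness to a profile highest on NAC replicate 3. Sftpc, Scgb1a1, Adipoq, Retn and Myh4 belong to marker lists described above as highest there. NAC replicate 3 was the high array for Sftpc (ratio 0.975, at 10.51), Scgb1a1 (0.934, at 9.29), Adipoq (0.879, at 5.80), Retn (0.854, at 9.13), Myh4 (0.940, at 7.02), Racgap1 (0.839, at 7.33) and Mcm5 (1.00, at 7.51). The ratio of Mcm5 comes from equal values, as all its other NAC arrays were at 7.43. NAC replicate 2 was the low array for Dhodh (0.870, at 7.94) and Slc28a3 (0.938, at 9.06), which also had equal values among their other NAC arrays. None of the 10 enzymes passed, and Tk1 on NAC replicate 3 had a ratio of 0.807.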

How the results depend on the processing

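Of 149 log2 differences of the 10 enzymes under 15 alternatives, 147 kept their direction and none passed the threshold. The exceptions were of Rrm1, whose log2 difference ranged from -0.080 (without NAC replicate 3) to 0.045 (without NAC replicate 4) when an array was left out and was 0.0029 without both of these. Tk1 lies under the 40th percentile and has no value without dim genes. The same holds for Gda, Ada, Uox, Dck, Ndc80, Spertl and Cenph among the other named genes. All 563 values of the 38 other named genes kept their direction. The genes called over the whole table were 0 to 1 when an array was left out, the 1 being Crip1 without NAC replicate 4, and the enzymes called were 0 throughout. The enzymes at an unadjusted p under 0.05 were 2 to 3 when an array was left out (the third being Atic without vehicle replicate 1 and Rrm2 without vehicle replicate 2) and 1 without NAC replicates 3 and 4 together. With the replicate block, the vehicle and NAC arrays of one number being paired and NAC replicate 3 carrying no weight, the log2 differences of Ppat and Paics were -0.17 and -0.15, 0 genes were called and 956 in place of 836 had an unadjusted p under 0.05. The deviations of same-numbered arrays correlated across genes at 0.21, 0.29 and -0.07 for numbers 1, 2 and 4. Arrays of unlike number were not compared in this way, so these values cannot decide whether the numbers mark pairs. The main comparison did not take them as pairs. Values are equal on at least 3 arrays for 7568 genes, Umps among them, which limits what small differences show.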
